A study of Mus musculus with 12 samples.

Results

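Gap junctions join glial cells into one network. Each junction is built from connexins, proteins that assemble as hemichannels and dock with a partner across the gap between neighbouring cells. Oligodendrocytes, which make the myelin sheath, and astrocytes, which surround them, express different connexins, and the network is known for spreading potassium taken up around active axons and for passing small metabolites between glia. Gjc3 encodes connexin 29, found in oligodendrocytes on the innermost myelin membrane facing the axon. Gjb1 encodes connexin 32, found in the non-compact regions of the myelin sheath, where it can couple layers of the sheath and pair with an astrocyte connexin. Gjb6 and Gja1 encode connexin 30 and connexin 43, the main astrocyte connexins.

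These 4 genes were taken by symbol, and all 4 were found among the 21937 genes of the expression table. The RNA came from a light membrane fraction of brain in which myelin was enriched, from male wild type c57Bl6/N mice aged 18 days (P18), 75 days (P75), 6 months or 24 months. There were 3 samples per age and 12 in all. All groups share the strain, the genotype and the fraction, and the labels name no treatment. The labels do not say whether the samples of an age came from separate animals, so the p-values reflect only the spread among the samples measured, which may be technical. The values are normalised read counts, counts of reads per gene scaled by the authors with a size factor for each sample. Depth ranged from 20299052 to 27214385 reads per sample. Mbp, a structural myelin gene, took from 4.76% to 20.8% of all values in a sample. The fraction was not a pure oligodendrocyte preparation: the 21 mature oligodendrocyte markers and the 20 astrocyte markers of the lists used here that were found in the table all had reads in at least 1 sample. Mean sums at P18 were 372021 for these oligodendrocyte markers, 159935 for the astrocyte markers and 188449 for the 11 neuronal markers found. At 24 months the mean sums were 165432, 143906 and 200782 in the same order (n = 3). Snap25 alone made up 109834 of the neuronal sum of 182786 in P18 replicate 1. Other neuronal markers moved in both directions between these ages. In such a fraction, fewer cells of a type, less RNA per cell and less of that RNA entering the fraction cannot be told apart.

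The genes lie on 4 chromosomes. In GENCODE M21 (build GRCm38, not the mm9 build of the deposited counts), Gjc3 is at chr5:137953461-137963098 on the minus strand and Gjb1 at chrX:101376378-101385629 on the plus strand. Gjb6 is at chr14:57123303-57133611 on the minus strand and Gja1 at chr10:56377330-56402513 on the plus strand. Their coding sequences hold 269, 283, 261 and 382 codons without the stop, in the order Gjc3, Gjb1, Gjb6 and Gja1. What makes them one family can be read from the first extracellular loop, the stretch that docks with the opposite hemichannel. It carries 3 cysteine codons spaced by 6 and 3 codons, and each coding sequence held this spacing once, read in frame. The 36 bases are given 5′ to 3′ from the GENCODE M21 transcripts, with the cysteine codons in capitals and the other codons in lower case:
Gjc3: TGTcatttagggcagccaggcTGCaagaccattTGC
Gjb1: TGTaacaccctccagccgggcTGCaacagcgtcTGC
Gjb6: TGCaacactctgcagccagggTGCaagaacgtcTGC
Gja1: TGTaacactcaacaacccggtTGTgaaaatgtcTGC

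The stretch covers codons 64 to 75 in Gjc3, 53 to 64 in Gjb1 and Gjb6, and 54 to 65 in Gja1. Gjb1 and Gjb6, one from each cell type, were the most alike here, with 29 of 36 bases identical. Gjc3 and Gja1 were the least alike, with 18 of 36. Gjc3 matched Gjb1, the other oligodendrocyte connexin, at 23 of 36 bases.

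Over the whole span of ages the 3 connexins Gjb1, Gjb6 and Gja1 rose and Gjc3 did not pass the test. At 24 months against P18, Gja1 rose 1.48-fold, Gjb6 rose 1.46-fold and Gjb1 rose 1.42-fold, and Gjc3 was at 0.945 of its P18 level. Thus 3 of 4 members were called, all higher, where 62.5% of the 14987 genes tested were called, 32.0% higher and 30.5% lower (limma on log2(value + 1), Benjamini-Hochberg adjusted p under 0.05). The median log2 fold change of the 4 members was 0.53, and that of all genes tested was -0.0051. Tested over all 4 ages together, 3 of 4 members differed at some age, where 77.4% of all genes did (limma F test). The genes passed the test at different steps, and they are described in the order of the cells that make them.

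At 24 months against P18 the samples of Gjb6 and Gja1 did not overlap, as was the case for 66.1% of all genes tested.

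**Figure D1:**
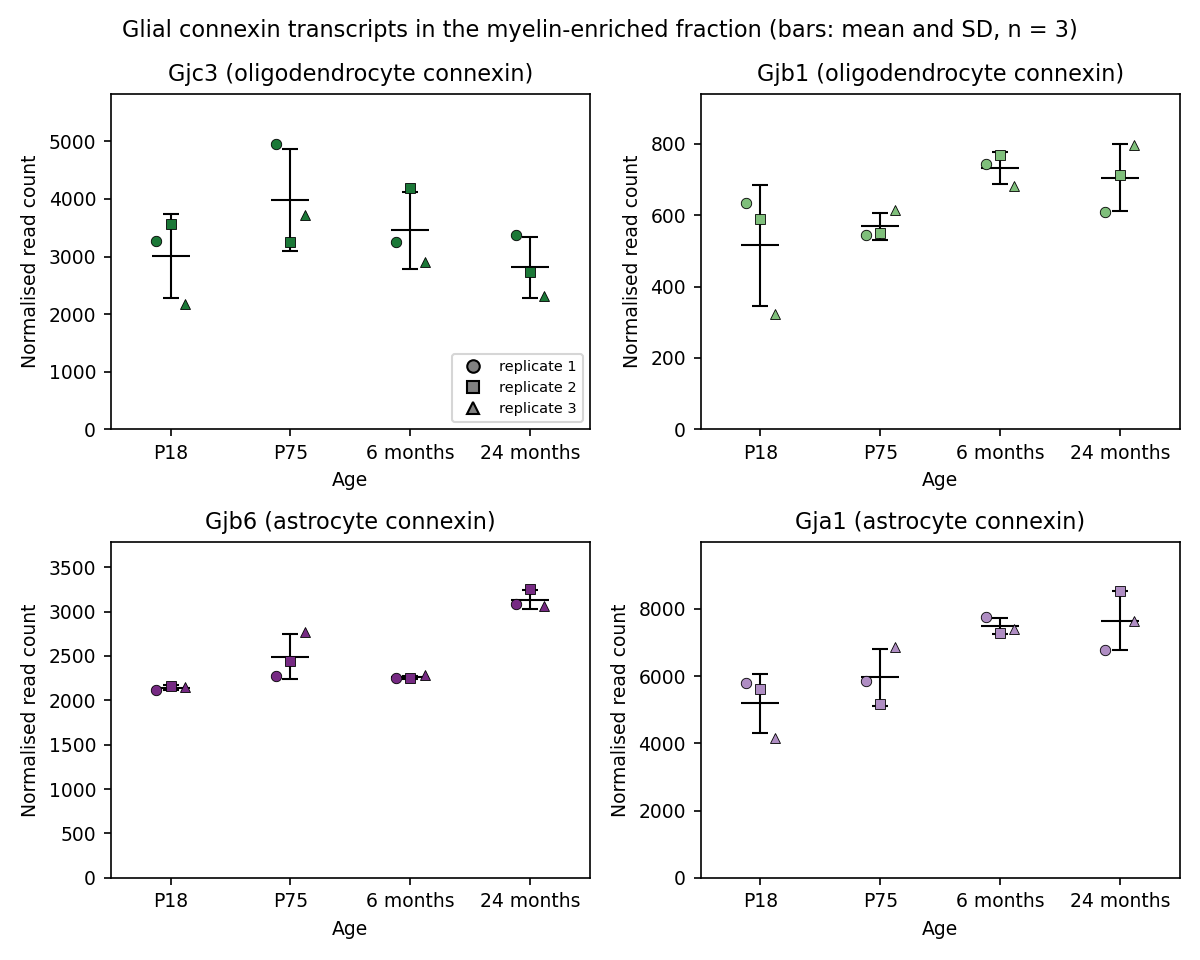
Normalised read counts of the 4 connexins (vertical axes, each starting at 0) by age (horizontal axes). Symbols are single samples and bars are the mean and SD of 3 samples. Gjb6 samples at 24 months, from 3059 to 3253, lie above all other Gjb6 samples, while the Gjc3 samples of the 4 ages overlap.

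Gjc3 had no clear course with age. At P18 its values were 3276, 3570 and 2177 normalised counts in replicates 1, 2 and 3. At P75 they were 4962, 3258 and 3717. At 6 months they were 3259, 4194 and 2911. Every consecutive pair of ages overlapped, and the spread within an age was wide, with a coefficient of variation between 19.0% and 24.4%. At 24 months the values were 3380, 2735 and 2322. The order of the means was P75 (3979), 6 months (3455), P18 (3008) and 24 months (2812), and no neighbours in that order were separated by more than their ranges. The F test over all ages did not pass (adjusted p = 0.0941, limma).

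The largest of the Gjc3 steps was the first. P75 stood 0.41 ± 0.19 above P18 in log2 units (for log2 fold changes ± gives the SE of the fit, with 3 samples per age) and did not pass (adjusted p = 0.0959, limma), with a 95% interval from 0.0092 to 0.82. The later steps were -0.20 ± 0.19 at 6 months against P75 and -0.30 ± 0.19 at 24 months against 6 months (adjusted p = 0.398 and 0.287, limma). The interval of the last step reached from -0.70 to 0.11. Over the whole span the difference was -0.082 ± 0.19 (adjusted p = 0.729, limma), and it changed sign without P18 replicate 2 (0.058) or 24 months replicate 3 (0.048). The first step passed after scaling to the sum of all values (0.54, adjusted p = 0.0104), a scaling that also moved the median of all genes from 0.017 to 0.14 in that comparison, and without P18 replicate 2 (0.55, adjusted p = 0.0465). The F test passed with that scaling (adjusted p = 0.00853). It also passed with 1 sample left out, namely P18 replicate 2 (adjusted p = 0.0495), P18 replicate 3 (0.0427) or 24 months replicate 1 (0.0496, limma).

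Gjb1 was the least abundant member and rose between P18 and 24 months. At P18 its values were 633.4, 590.9 and 322.4 normalised counts. At P75 they were 544.1, 549.8 and 613.5. At 6 months they were 744.2, 768.7 and 681.2, and all of these lay above all P75 values. At 24 months the values were 608.3, 712.5 and 796.1, which overlapped with 6 months and with P18. The order of the means was 6 months (731.3), 24 months (705.6), P75 (569.2) and P18 (515.6), and every pair of neighbours in that order overlapped. Its lowest library, P18 replicate 3, still held 321 reads.

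No single Gjb1 step passed the test. The steps were 0.20 ± 0.18 at P75 against P18, 0.36 ± 0.18 at 6 months against P75 and -0.058 ± 0.18 at 24 months against 6 months (adjusted p = 0.404, 0.107 and 0.858, limma). The last of these changed sign without 24 months replicate 1 (0.044). The rise at 24 months against P18 was 0.50 ± 0.18 on the log2 scale (adjusted p = 0.0239), and the F test over all ages gave adjusted p = 0.0304 (limma).

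These Gjb1 calls rest on few samples. P18 replicate 3 was the lowest P18 sample for Gjb1, Gjc3 and Gja1, but not for Gjb6, and it also had the lowest summed oligodendrocyte markers at P18 (274319 against 415917 and 425828) and the lowest summed astrocyte markers (147026 against 163918 and 168860). Its summed neuronal markers were the highest at P18 (210192 against 182786 and 172369). The part of these differences in the results was not tested. Without that sample the rise at 24 months against P18 was 0.20 (adjusted p = 0.126), the step from P18 to P75 was -0.11 (adjusted p = 0.468), and the step from P75 to 6 months passed (0.36, adjusted p = 0.00433, limma). The rise over the whole span was also lost without 24 months replicate 2 (0.49, adjusted p = 0.0591) or replicate 3 (0.41, adjusted p = 0.0959, limma). The F test was lost without 6 months replicate 1 (adjusted p = 0.0626), 6 months replicate 2 (0.0653), 24 months replicate 2 (0.0524) or 24 months replicate 3 (0.0546, limma).

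Gjb6, the astrocyte connexin 30 gene, was raised in the oldest samples. At P18 its values were 2113, 2162 and 2151 normalised counts. At P75 they were 2270, 2439 and 2766. At 6 months they were 2252, 2252 and 2282. The P18 and 6 months samples lay tightly together, with coefficients of variation of 1.2% and 0.76%. At 24 months the values were 3088, 3253 and 3059, and the lowest of them was above the highest sample of every other age. The order of the means was 24 months (3134), P75 (2492), 6 months (2262) and P18 (2142), and P75 and 6 months overlapped.

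The step from 6 to 24 months was a rise of 0.47 ± 0.081 on the log2 scale, or 1.39-fold (adjusted p = 0.00181, limma), in a comparison in which 19.2% of all genes were called, 10.8% higher and 8.34% lower, and 43.2% did not overlap. Gjb6 was the only 1 of the 4 members called there, and the call held under all 22 alternatives, with log2 fold changes from 0.43 to 0.50. Over the whole span the rise was 0.55 ± 0.081 (adjusted p = 1.84e-05), and the F test gave adjusted p = 6.24e-05 (limma). At 6 months against P75 the difference was -0.13 ± 0.081 and did not pass (adjusted p = 0.171, limma).

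The earlier rise of Gjb6, at P75 against P18, was small and close to the threshold. It was 0.21 ± 0.081 on the log2 scale (adjusted p = 0.0443, limma), with no overlap between the ages. In that comparison 40.4% of all genes were called, 21.7% higher and 18.7% lower, and 47.1% did not overlap. There Gjb6 was the only 1 of the 4 members called. The call was lost in edgeR (0.20, adjusted p = 0.0541) and with scaling to the sum without Mbp (0.18, adjusted p = 0.0997). Single samples also ended it, namely P18 replicate 1 (0.20 when left out, adjusted p = 0.108), P18 replicate 2 (0.22, 0.0826), P18 replicate 3 (0.22, 0.0528), P75 replicate 2 (0.23, 0.0704) or P75 replicate 3 (0.14, 0.203, limma). Leaving out 6 months replicate 2, 6 months replicate 3 or any of the 24 months samples kept the estimate at 0.21 and gave adjusted p from 0.0528 to 0.0600 (limma).

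Gja1, the astrocyte connexin 43 gene, had the highest normalised counts of the 4 and was higher at the later ages. At P18 its values were 5786, 5602 and 4169. At P75 they were 5841, 5181 and 6861. At 6 months they were 7765, 7293 and 7402, all above all P75 values. At 24 months the values were 6783, 8520 and 7636, which spread around the 6 months samples on both sides. The order of the means was 24 months (7646), 6 months (7487), P75 (5961) and P18 (5186), and of its neighbours only 6 months and P75 did not overlap.

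The step from P75 to 6 months was a rise of 0.34 ± 0.13 on the log2 scale, or 1.26-fold (adjusted p = 0.0375, limma). In that comparison 52.4% of all genes were called, 27.1% higher and 25.4% lower, and 62.3% did not overlap. There Gja1 was the only 1 of the 4 members called. The call was lost without P75 replicate 1 (0.33, adjusted p = 0.0830), P75 replicate 2 (0.24, 0.171), 6 months replicate 1 (0.31, 0.101), 6 months replicate 2 (0.36, 0.0619) or 6 months replicate 3 (0.35, 0.0694, limma), and with no filter on low genes (adjusted p = 0.0515). The steps at P75 against P18 (0.21 ± 0.13, adjusted p = 0.218) and at 24 months against 6 months (0.025 ± 0.13, adjusted p = 0.919, limma) did not pass. The latter was -0.056 without 24 months replicate 2, and it was -0.015 and -0.014 after scaling to the sum of all values with and without Mbp. The rise over the whole span, 0.57 ± 0.13 (adjusted p = 0.00112), and the F test (adjusted p = 0.00179, limma) passed under all 22 alternatives, with the rise between 0.42 and 0.66.

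**Figure D2:**
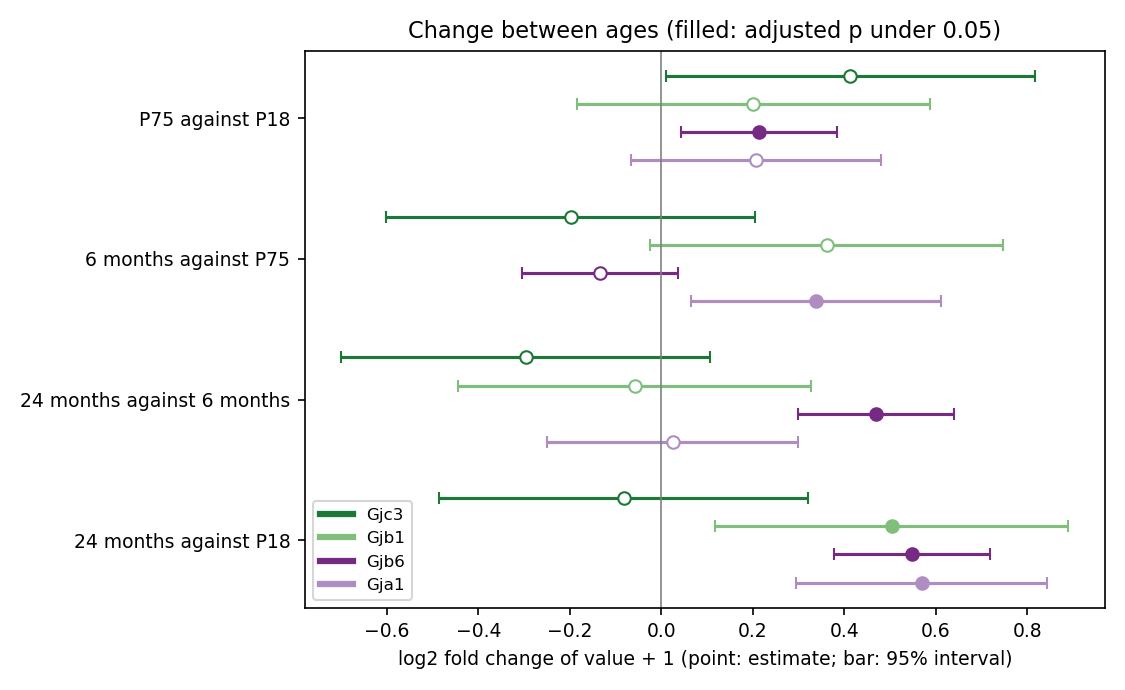
Log2 fold change of each connexin (horizontal axis, value + 1 scale) in the 3 consecutive comparisons and over the whole span (vertical axis). Points are estimates, bars are 95% intervals, and filled points passed the test. Gjb6 is the filled point at 24 months against 6 months, at 0.47, and Gjb1, Gjb6 and Gja1 are filled over the whole span, at 0.50, 0.55 and 0.57.

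The levels of the 4 transcripts were set side by side per kilobase, since longer transcripts yield more reads. Per kilobase of the longest protein-coding transcript, the P18 levels were 1630 ± 278 normalised counts for Gja1, 1018 ± 12.2 for Gjb6, 752 ± 184 for Gjc3 and 325 ± 106 for Gjb1 (SD, n = 3). At 24 months they were 2403 ± 273, 1489 ± 49.8, 703 ± 133 and 445 ± 59.4 in the same order. On this scale both astrocyte connexins stood above both oligodendrocyte connexins at these ages. The place of Gja1 depends on the length used, because its annotated exons together cover 10257 bases against 3182 in its longest coding transcript. Per kilobase of all annotated exons, the P18 levels were 801 ± 9.63 for Gjb6, 691 ± 169 for Gjc3, 506 ± 86.3 for Gja1 and 302 ± 98.8 for Gjb1. Gjb1 was the lowest on both scales at both ages named.

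A ratio of 2 members within a sample does not depend on how the sample was scaled, and it shows whether they moved apart with age. All 6 pairs were tested, together with the 4 ratios to cell type markers given below, by an exact permutation test of the F statistic over all 15400 partitions of the 12 samples into 4 groups of 3, adjusted over the 10 ratios. The smallest p the test can give is 6.49e-05. None of the 6 pairs passed (adjusted p from 0.0544 to 0.939, exact test). At an unadjusted p under 0.05 there were 2, Gjb6 to Gja1 and Gjc3 to Gja1.

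The ratio of the astrocyte pair, Gjb6 to Gja1, was lowest at 6 months. Its log2 means were -1.26 ± 0.27 in the P18 samples, -1.25 ± 0.15 in those of P75, -1.73 ± 0.052 by 6 months and -1.28 ± 0.13 by 24 months (SD, n = 3, exact permutation p = 0.0272, adjusted 0.0544). The samples at 6 months, between -1.79 and -1.69, lay below all others. The pair passed without P18 replicate 1 (adjusted p = 0.0333), P18 replicate 3 (0.0136) or 24 months replicate 1 (0.0436, exact permutation tests).

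The 2 oligodendrocyte connexins had their highest mean ratio at P75. The log2 ratio of Gjc3 to Gjb1 was 2.57 ± 0.19 in the P18 samples, 2.79 ± 0.35 in those of P75, 2.23 ± 0.19 by 6 months and 1.99 ± 0.47 by 24 months (SD, n = 3, exact permutation p = 0.0544, adjusted 0.0777). Gjc3 to Gja1 followed a like course, from -0.80 ± 0.14 and -0.60 ± 0.33 to -1.13 ± 0.29 and -1.45 ± 0.39 (SD, n = 3, exact permutation p = 0.0403, adjusted 0.0671). Without 24 months replicate 1 both passed, with adjusted p = 0.0118 for Gjc3 to Gjb1 and 0.0160 for Gjc3 to Gja1 (exact permutation tests). Gjc3 to Gjb6 did not pass (adjusted p = 0.0835, exact test). Its 24 months samples, from -0.40 to 0.13, reached lower than those of any other age.

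Gjb1 and Gja1, made by different cell types, had close mean ratios at the 4 ages. The log2 means were -3.38 ± 0.28 in the P18 samples, -3.38 ± 0.13 in those of P75, -3.36 ± 0.10 by 6 months and -3.44 ± 0.16 by 24 months (SD, n = 3, exact permutation p = 0.939, adjusted 0.939). Gjb1 to Gjb6 did not pass (adjusted p = 0.195) but passed without P18 replicate 3 (adjusted p = 0.0136, exact permutation tests). In the latter pair the 6 months samples, between -1.74 and -1.55, were the highest apart from 1 overlap with P18.

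Set against the summed markers of their cell types in the fraction, all 4 connexins differed with age. Gjb1 relative to the summed mature oligodendrocyte markers had log2 ratios of -9.53 ± 0.18 in the P18 samples, -8.31 ± 0.041 in those of P75, -8.03 ± 0.072 by 6 months and -7.88 ± 0.14 by 24 months (SD, n = 3, exact permutation p = 1.30e-04, adjusted 0.00130). The P18 samples, from -9.73 to -9.39, lay below all others. Gjc3 relative to the same markers went from -6.96 ± 0.082 at P18 to -5.52 ± 0.31 at P75, -5.80 ± 0.13 by 6 months and -5.90 ± 0.33 by 24 months (SD, n = 3, exact permutation p = 0.00539, adjusted 0.0135).

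The marker sum itself was lower after P18. It was 372021 ± 84758 in the P18 samples and 180025 ± 9548 in those of P75 (SD, n = 3). In the 6 months samples it was 191118 ± 20878, and in the 24 months samples 165432 ± 6900. Of the 21 markers tested, 5 rose, 11 fell and 5 did not pass at P75 against P18, with a median of -0.46. In that comparison 21.7% of all genes tested were higher and 18.7% lower.

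**Figure D3:**
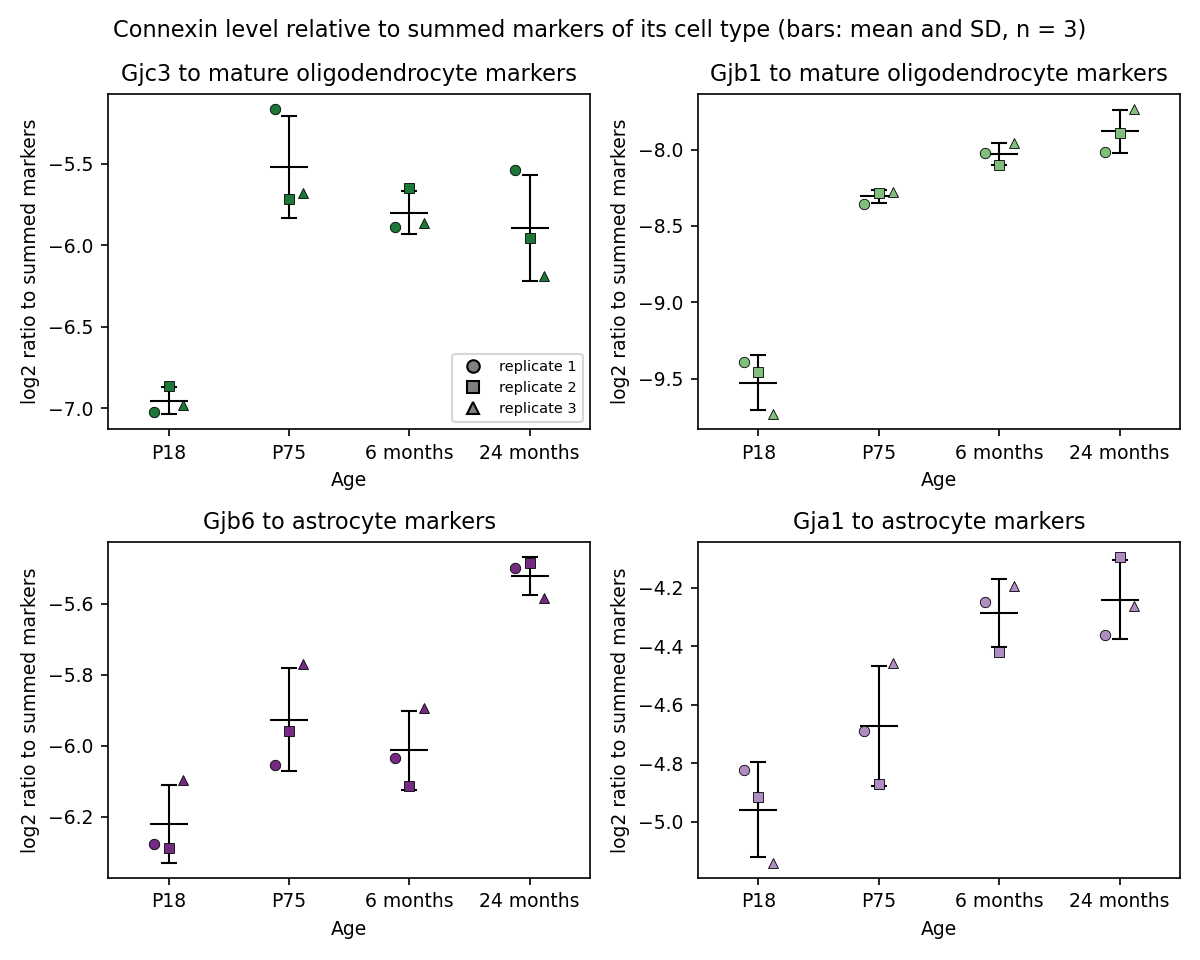
Log2 ratio of each connexin to the summed markers of its cell type (vertical axes, not starting at 0) by age (horizontal axes), with samples as symbols and mean and SD of 3 samples as bars. The P18 samples of Gjc3 and Gjb1 lie lowest, at -7.02 to -6.86 and -9.73 to -9.39, and the 24 months samples of Gjb6 lie highest, at -5.58 to -5.48.

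The astrocyte connexins also moved against their markers. Gjb6 relative to the summed astrocyte markers had log2 ratios of -6.22 ± 0.11 in the P18 samples, -5.93 ± 0.15 in those of P75, -6.01 ± 0.11 by 6 months and -5.52 ± 0.053 by 24 months (SD, n = 3, exact permutation p = 0.00143, adjusted 0.00649). The 24 months samples were above all others. Gja1 had -4.96 ± 0.16, -4.67 ± 0.21, -4.29 ± 0.12 and -4.24 ± 0.14 at the successive ages (SD, n = 3, exact permutation p = 0.00195, adjusted 0.00649), and its 6 and 24 months samples lay above all P18 and P75 samples. The astrocyte marker sum went from 159935 ± 11450 at P18 and 151030 ± 444 at P75 to 146316 ± 10220 by 6 months and 143906 ± 3842 by 24 months (SD, n = 3).

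Single astrocyte markers moved in both directions. Of 20 tested, 8 rose and 6 fell at 24 months against P18, with a median of -0.035. Among all genes tested, 32.0% rose and 30.5% fell there. At 24 months against 6 months, 3 of the 20 rose, 2 fell and 15 did not pass. All genes tested had 10.8% higher and 8.34% lower at that step. Aldoc and Slc1a2, a glycolytic enzyme gene and a glutamate transporter gene, together made up 49.1% of the sum at P18. Without them the ratios still passed (adjusted p = 0.0123 for Gjb6 and 0.0175 for Gja1, exact permutation tests). With the mean of the log2 marker values in place of the sum, Gja1 did not pass (adjusted p = 0.0544, exact permutation test).

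RNA of other cell types also changed. The 10 leptomeningeal and fibroblast genes, markers of the brain's coverings, where astrocyte-type connexins are also found, summed to 2567 ± 463 in the P18 samples, 3000 ± 326 in those of P75, 5220 ± 171 by 6 months and 5505 ± 532 by 24 months (SD, n = 3). Of these, 7 rose and 1 fell at 24 months against P18, where 32.0% of all genes tested rose and 30.5% fell. The 10 microglial genes summed to 7123 ± 687, 10445 ± 723, 12962 ± 996 and 20328 ± 2220 at the successive ages, and 10 of 10 rose over the whole span. The 8 ependymal genes found summed to 578 ± 120 at P18 and 353 ± 18.4 at 24 months. The 10 endothelial genes summed to 1906 ± 91.7 at P18 and 2401 ± 90.6 at 24 months. No gene of these lists that was found in the table was at 0 in all samples. Their part in the connexin results was not tested.

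The 4 members made up most of the connexin signal. All 20 mouse connexin symbols searched were in the table, and the members held from 86.4% to 91.1% of their summed value in a sample. Of the other 16 connexins, 5 passed the filter on low values and were tested. The remaining 11 had at most 10.2 normalised counts in any sample and were left out by that filter, so they were not tested in the main fit. At 24 months against P18, 2 of the 5 tested rose, 1 fell and 2 did not pass. Of all genes tested, 32.0% were higher and 30.5% lower there.

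Gjb2, which encodes connexin 26, had the widest rise among the other connexins tested. It lies next to Gjb6 on the same strand of chromosome 14, at chr14:57098600-57104702, with 18600 bases between the annotated genes. Its values were 120.0, 101.7 and 91.4 normalised counts at P18, and 193.4, 140.9 and 157.0 at P75. They were 348.5, 370.1 and 364.9 at 6 months, and 319.0, 377.3 and 436.9 at 24 months. It rose by 0.64 ± 0.14 at P75, by a further 1.15 ± 0.14 at 6 months (adjusted p = 0.00202 and 7.97e-06), and 3.59-fold over the whole span (adjusted p = 1.50e-08, limma). From 6 to 24 months, where Gjb6 rose by 0.47, Gjb2 had 0.053 ± 0.14 (adjusted p = 0.832, limma), and whether these steps differ was not tested. The leptomeningeal sum given above had its widest step between P75 and 6 months, as Gjb2 did, and its part in the Gjb2 result was not tested.

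Connexins of neurons and vessels were tested as well. Gjd2, which encodes connexin 36, the connexin of neuronal electrical synapses, was between 279.7 and 365.6 normalised counts at the first 3 ages and between 442.2 and 458.7 at 24 months. It rose by 0.56 ± 0.10 over the whole span (adjusted p = 1.17e-04) and by 0.40 ± 0.10 from 6 to 24 months (adjusted p = 0.0118, limma). The latter call was lost after scaling to the sum of all values (0.36, adjusted p = 0.0776) or without 6 months replicate 2 (0.38, adjusted p = 0.0502, limma). Over the whole span, 5 of the 11 neuronal markers rose, 3 fell and 3 did not pass. Among all genes tested, 32.0% were higher and 30.5% lower over that span. The part of the neuronal markers in the Gjd2 result was not tested. Gjc1, which encodes connexin 45, fell by 0.72 ± 0.17 from P75 to 6 months (adjusted p = 0.00169, limma). Gja4, which encodes the endothelial connexin 37, had 13.1 to 28.1 normalised counts and did not pass at any step.

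**Figure D4:**
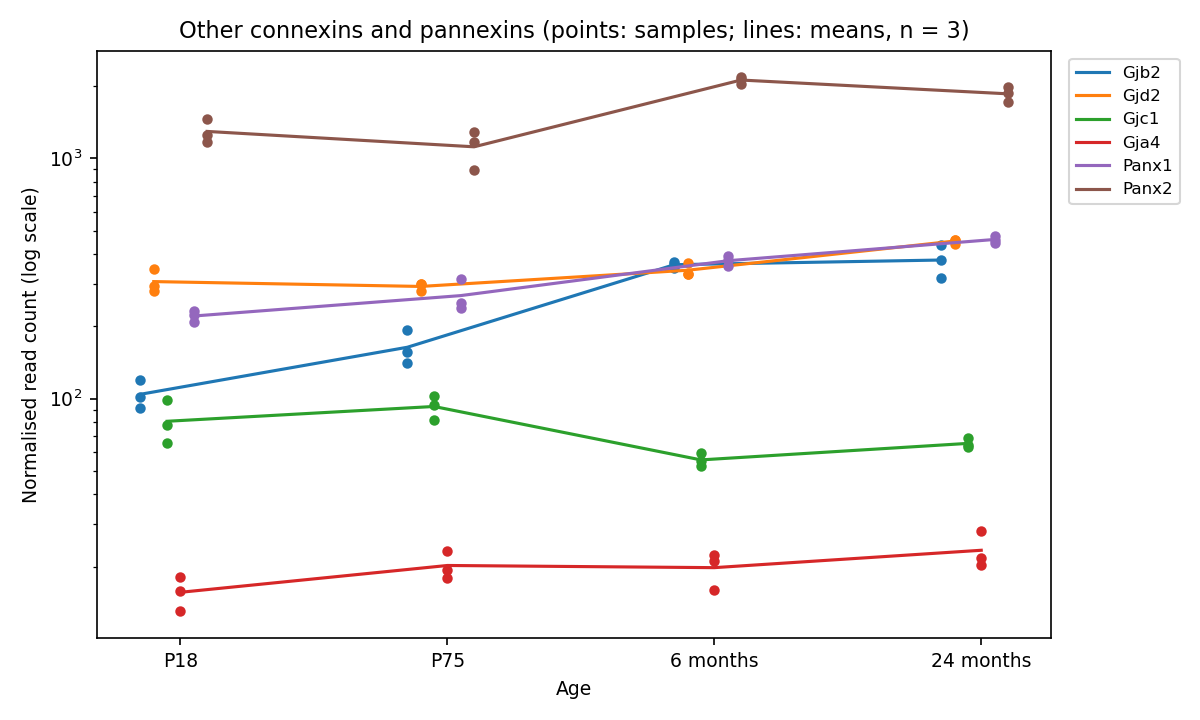
Normalised read counts (vertical axis, log scale) of 4 other tested connexins and the 2 tested pannexins by age (horizontal axis). Points are samples and lines join the means of 3 samples. Gjb2 climbs from a mean of 104.4 at P18 to 377.7 at 24 months, above its P18 samples at every later age.

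Pannexins are relatives in form that make channels to the outside of the cell and, as a rule, not gap junctions. Panx1 rose by 1.06 ± 0.11 over the whole span (adjusted p = 3.66e-07, limma), with P18 samples between 209.1 and 231 normalised counts and 24 months samples between 442.8 and 477.6. Panx2, the form abundant in the nervous system, rose by 0.94 ± 0.12 from P75 to 6 months (adjusted p = 8.87e-06, limma), from 1117 ± 205 to 2119 ± 66.2. At that step 7 of the 11 neuronal markers rose and 2 fell, where 27.1% of all genes tested were higher and 25.4% lower. Their part in the Panx2 result was not tested. Panx3 had at most 2.21 normalised counts and was not tested.

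Of 17 genes whose products bind, anchor, modify or traffic connexins, 4 rose, 8 fell and 5 did not pass at 24 months against P18, with a median of -0.069. In that comparison 32.0% of all genes tested were higher and 30.5% lower. Nov, a secreted matrix protein gene whose product binds connexin 43, rose by 1.64 ± 0.13 (adjusted p = 1.48e-08), from 930.6 ± 229 to 2842 ± 65.5 normalised counts (SD). Cdh2, which encodes the adhesion protein N-cadherin, rose by 1.34 ± 0.10 (adjusted p = 1.40e-08), and Cgn, which encodes the tight junction protein cingulin, rose by 1.41 ± 0.15 (adjusted p = 6.99e-07, limma). Tuba1a, a tubulin gene, fell by 0.71 ± 0.089 (adjusted p = 3.27e-06, limma).

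At the single steps the balance of this list depended on the scaling. With the deposited scaling it had 3 up and 6 down at P75, 8 up and 0 down at 6 months, and 2 up and 6 down at 24 months, each against the age before. All genes tested had 21.7%, 27.1% and 10.8% up, and 18.7%, 25.4% and 8.34% down, at the same steps. Scaling to the sum of all values gave 5 up and 3 down at P75, 4 up at 6 months and 0 up at 24 months. Quantile normalization gave 5 up at P75, and scaling without Mbp gave 1 up at 24 months. At 6 months against P75 the 8 became 5 without 6 months replicate 1 or replicate 2. At 24 months against 6 months the rises became 0 without 6 months replicate 2 or 24 months replicate 2, and 1 without 6 months replicate 3 or 24 months replicate 3. The falls there became 3 without 6 months replicate 1 or 24 months replicate 1.

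The glial network is tied to potassium and water handling, and a list of such genes was counted as well. Of 12 tested, 6 rose, 2 fell and 4 did not pass over the whole span, with a median of 0.52. Among all genes tested, 62.5% were called over that span, 32.0% higher and 30.5% lower. Clcn2, a chloride channel gene active in glia, rose by 1.62 ± 0.12 (adjusted p = 7.20e-09), from 335.9 ± 74.5 to 1020 ± 34.2 normalised counts (SD). Mlc1, whose product sits in astrocyte endfeet, rose by 0.74 ± 0.11 (adjusted p = 1.28e-05, limma). Kcnj16, a subunit of inwardly rectifying potassium channels, rose by 0.69 ± 0.12 (adjusted p = 1.17e-04).

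By step, 4 of the 12 rose and 2 fell at P75 against P18, 7 rose and 1 fell at 6 months against P75, and 1 rose and 0 fell at 24 months against 6 months. The 2 falls at P75 became 0 after scaling to the sum of all values and 1 without P75 replicate 1. At 24 months, 1 gene fell without P18 replicate 3 or without 6 months replicate 3. Over all genes tested, the same steps had 40.4%, 52.4% and 19.2% called, so the last step had the fewest calls in the list and over all genes.

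As a description of likeness, the 5 named genes with the highest Pearson r to each member over the 12 samples were found among genes with a mean of at least 50. The samples share their ages, so any genes that change with age are drawn together. For Gja1 they were Slc12a2 (r = 0.982), a sodium, potassium and chloride cotransporter gene from the handling list, Sypl (0.980), Vwa5a (0.976), Vcam1 (0.976) and Agpat5 (0.967). For Gjb1 they were Tmie (0.971), the astrocyte water channel gene Aqp4 (0.952), Scd2 (0.935), a fatty acid desaturase gene, Ndp (0.933) and Kcnk13 (0.932). Among the members, Gjb1 was nearest to Gja1 (r = 0.893) and had r = 0.224 with Gjc3. P18 replicate 3 was the lowest of the 12 samples for Gjb1 (322.4), Aqp4 (2458) and Gja1 (4169). Aqp4 did not pass the F test over all ages (adjusted p = 0.168, limma). The part of that sample in these r values was not tested.

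For Gjb6 the nearest genes were not those of the other members. They were Tspo (r = 0.978), a mitochondrial membrane protein gene used as a marker of glial activation, Cyba (0.962), Tyrobp (0.957), H2-Gs10 (0.957) and Tm4sf1 (0.953). Cyba and Tyrobp are known from microglia, and the microglial sum given above was likewise highest at 24 months; its part in the Gjb6 result was not tested. For Gjc3 they were Nudt4 (0.918), Clic4 (0.902), Ipmk (0.887), Tulp4 (0.879) and Rhobtb3 (0.878). Gjc3 had r = 0.078 with Gja1 and -0.26 with Gjb6.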

How the data were processed

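RNA of 12 samples was measured. The authors deposited a signal for each gene, namely reads counted per gene and divided by a size factor; TopHat, HTSeq, DESeq and build mm9 are named, without versions, in the submitters' processing notes. All values were whole multiples of the step of their column (100%, tolerance 0.0061), which gave back whole reads, although in 3 columns that step was within 1% of 1. Strand setting and batches are not given in the sources used here. The members and all gene lists were chosen with earlier results of these data known.

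Genes reaching 10 in at least 3 samples (14987) were fitted on log2(value + 1) with limma 3.58.1 (trended variance, R 4.3.3), all ages together. Fold changes on this scale understate those of low genes. Tests were two-sided, Benjamini-Hochberg adjusted over all genes, threshold 0.05. Consecutive comparisons share the middle age's samples. Alternatives were edgeR 4.0.16 (TMM) and DESeq2 1.42.0 on recovered reads, pseudocounts 5 and 0.5, no filter, a filter at 50, quantile normalization, scaling to the sum of all values with or without Mbp, a replicate block, and leaving out each sample. Fits were tested on simulated data. Lengths and sequences came from GENCODE M21. Named genes were the members, tested connexins and pannexins, the 4 of each other pathway list with the lowest F test p, and the 5 most alike to each member (clone and predicted names left out). Some items that this rule names are not reported here. The astrocyte marker sum without Aldoc and Slc1a2, and exon length, were added after seeing the data.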

Additional observations from a re-analysis of the deposited data

How the results depend on the processing

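Over 22 alternatives per comparison, the Gjb6 rise at 24 months against 6 months and the Gjb6 and Gja1 rises over the whole span kept their calls and direction. Depth was not limiting for the members, which held at least 321 reads in every library. The 11 untested connexins were low, with at most 10.2 normalised counts in any sample. Scaling to the sum of all values moved the Gjc3 step at P75 to 0.54 (called), its F test to adjusted p = 0.00853, the Gja1 step at 24 months against 6 months to -0.015 (against 0.025), and the genes called there to 1782 (against 2876). Without Mbp in the sum that Gja1 step was -0.014 and the Gjb6 step at P75 was 0.18 (not called). The Gjb6 step was 0.20 in edgeR (not called). The Gja1 step at 6 months was 0.34 with no filter (not called). The mean of log2 markers gave adjusted p = 0.0544 for Gja1 to astrocyte markers. The causes were not tested.

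The replicate numbers did not pair the samples across all ages. Deviations of same-numbered samples correlated between -0.185 and 0.165, with 3 of 18 pairs above 0.1, and 6 of 12 samples correlated best with their own number. Between P75 and 6 months, same-numbered samples correlated at 0.147, 0.0934 and 0.165, and the others between -0.132 and -0.0282. Correlations as large were also found between samples of different number. Between P18 and P75, same-numbered samples correlated at -0.0328, -0.128 and -0.127, and the others between -0.117 and 0.189. Whether samples of these ages were paired was not tested. With the replicate block the Gjc3 step at P75 (0.41) and its F test (adjusted p = 0.0318) passed, and the Gjb6 step at P75 (0.21) and the Gja1 step at 6 months (0.34) did not. It called 5871, 7656, 2583 and 9186 genes at P75, 6 months, 24 months and over the whole span, against 6051, 7859, 2876 and 9367.

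Leaving out single samples gave ranges of log2 fold changes. For Gjc3 they were 0.20 to 0.55 at P75 and -0.30 to 0.058 over the whole span, with F test adjusted p from 0.0427 to 0.295. For Gjb1 they were -0.11 to 0.38 at P75, 0.32 to 0.42 at 6 months, -0.15 to 0.044 at 24 months and 0.20 to 0.68 over the whole span, with F test adjusted p from 0.00587 to 0.0653. For Gjb6 they were 0.14 to 0.28 at P75, and for Gja1 0.24 to 0.44 at 6 months and -0.056 to 0.11 at 24 months. Genes called at 24 months against 6 months ranged from 1230 (without 24 months replicate 2) to 3966, and were 1279 without 6 months replicate 1, 1495 without 6 months replicate 2 and 1510 without 24 months replicate 1. Adjusted p of the ratios ranged from 0.0118 to 0.158 (Gjc3 to Gjb1), 0.0160 to 0.156 (Gjc3 to Gja1), 0.0136 to 0.427 (Gjb1 to Gjb6) and 0.0136 to 0.127 (Gjb6 to Gja1), by exact permutation tests.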
